A study of Mus musculus with 9 samples.

Results

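The 9 chemokine receptor genes Ccr2, Ccr4, Ccr6, Ccr7, Ccr8, Cxcr3, Cxcr4, Cxcr5 and Cxcr6 were read from a count table of 45808 genes, chosen by name as receptors that steer T cells to tumours, inflamed tissue and lymphoid organs. The table holds 9 libraries, each from the ICOS+ CD4 T cells sorted out of the tumour of a single C57BL/6J mouse at day 12 after injection of MC38 cells, a mouse colon carcinoma line that grows in this strain. The groups were 3 mice treated with anti-CTLA-4, 3 treated with anti-PD-1 and 3 controls, and the series asks whether the antibodies work through different cells. ICOS is a costimulatory receptor of activated T cells, so every library comes from cells chosen by that gate. The sources used here do not state the mice's age or what the controls received. The RNA was too scarce for a standard kit, and a kit for single-cell amounts was used.

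Chemokine receptors are G protein-coupled receptors that make a cell move up a gradient of a secreted chemokine. CCR7 and CXCR5 guide cells within lymphoid organs, to the T cell zone and to B cell follicles, while CXCR3, CCR2 and CXCR6 serve entry into inflamed tissue. CCR4 and CCR8 are prominent on tissue and tumour regulatory T cells, CCR6 answers the epithelial chemokine CCL20 and marks Th17 cells and some regulatory T cells, and CXCR4 answers CXCL12 in bone marrow and stroma.

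Levels are given in CPM, the count of a gene per 1e+06 gene counts of its library. Libraries held 25530333 to 41508589 gene counts, so that 3 counts, the limit that a count of 0 allows, are worth 0.0723 to 0.118 CPM. This limit covers counting error only, since no molecular identifiers are described. Regulatory T cell markers (4 genes) summed to 4295 to 11065 CPM in anti-CTLA-4 mice, 10592 to 12492 CPM in anti-PD-1 mice and 10883 to 15729 CPM in controls. The 7 CD4 T cell markers summed to 2675 CPM for anti-CTLA-4 replicate 2, against 3732 to 5502 CPM for the other 8 libraries. Single markers of that library went both ways. Its Cd4 was 24.5 CPM against 308 to 808 CPM elsewhere. Its Cd3e, a T cell receptor subunit, was 0.59 CPM against 347 to 838 CPM. Icos was also lowest there, at 507 CPM. By contrast Cd3d, Cd3g and Trac had their highest values of all 9 libraries there, 696, 649 and 632 CPM. Lck, at 165 CPM, was within the range of the others. Anti-CTLA-4 replicate 2 stood apart, with 2662 genes at 5 CPM or more against 4209 to 6309 in the other 8 libraries, and with 14 macrophage and monocyte markers at 6348 CPM against 236 to 976 CPM and 5 fibroblast markers at 1597 CPM against 31.4 to 375.7 CPM. Gaps touched genes that every cell uses: of 78 ribosomal protein genes tested, 14 had 3 counts or fewer in at least 1 library. Of all 7858 genes tested 68.5% had such a library.

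Of the 7 receptors with enough counts for a test, 4 had groups whose libraries did not overlap in at least 1 of the 3 comparisons, as had 24.4% of all tested genes: Ccr4 and Ccr2 with anti-PD-1, and Ccr8 and Cxcr6 with anti-CTLA-4. The sequences around the start sites of these 4 genes follow, because the contrasts described here turn on them. They are RefSeq windows of build GRCm38.p6, from 250 bases before to 50 bases after the start, read 5′ to 3′ along the gene's own strand. RefSeq windows were matched for 7 of the 9 receptors. Capitals mark matches on either strand to any of 6 motifs. The AP-1 factors of activated T cells are known to bind TGAGTCA. The motif searched for the GATA family, which includes the Th2 factor, was AGATAA. For T-box factors such as T-bet the letters searched were TCACAC. RUNX factors, which act throughout T cell development, were searched as TGTGGT. The ETS family, widely used in lymphocytes, was searched as AGGAAG, and the last motif was the NF-kappaB consensus. Ccr4 is chr9:114496495-114496794 on the minus strand, Ccr2 is chr9:124101933-124102232, Ccr8 is chr9:120091883-120092182 and Cxcr6 is chr9:123806227-123806526, these last all on the plus strand. The Ccr4 window lies inside the span of the GENCODE gene model, which has a start farther upstream. Nearly all of the Ccr2 window also lies inside its gene model, which starts at 124101950.
Ccr4: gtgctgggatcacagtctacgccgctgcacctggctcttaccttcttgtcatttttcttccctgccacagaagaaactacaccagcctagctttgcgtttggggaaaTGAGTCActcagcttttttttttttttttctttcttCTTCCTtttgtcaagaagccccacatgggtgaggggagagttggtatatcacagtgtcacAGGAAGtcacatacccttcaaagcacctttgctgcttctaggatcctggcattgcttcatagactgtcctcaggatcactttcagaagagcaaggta
Ccr2: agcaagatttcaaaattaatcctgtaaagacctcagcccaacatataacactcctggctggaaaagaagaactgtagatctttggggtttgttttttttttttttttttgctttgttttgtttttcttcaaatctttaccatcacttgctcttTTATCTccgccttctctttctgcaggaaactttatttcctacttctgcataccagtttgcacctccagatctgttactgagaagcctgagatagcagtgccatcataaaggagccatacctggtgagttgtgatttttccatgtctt
Ccr8: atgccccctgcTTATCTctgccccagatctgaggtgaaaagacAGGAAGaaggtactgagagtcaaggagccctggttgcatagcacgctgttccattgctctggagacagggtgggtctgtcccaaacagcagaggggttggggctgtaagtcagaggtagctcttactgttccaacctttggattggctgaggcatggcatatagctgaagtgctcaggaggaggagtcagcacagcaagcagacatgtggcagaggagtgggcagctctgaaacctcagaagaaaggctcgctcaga
Cxcr6: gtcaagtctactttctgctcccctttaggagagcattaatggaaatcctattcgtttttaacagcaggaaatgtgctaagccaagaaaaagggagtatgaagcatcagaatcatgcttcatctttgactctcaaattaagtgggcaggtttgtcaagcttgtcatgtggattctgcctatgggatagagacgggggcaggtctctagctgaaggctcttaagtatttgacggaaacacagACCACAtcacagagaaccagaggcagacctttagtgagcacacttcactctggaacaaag

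In the Ccr4 window TGAGTCA begins at position -143 from the start, and AGGAAG matches begin at -107, on the reverse strand, and at -47. The Ccr2 window held an AGATAA match alone, at -97 on the reverse strand. The Ccr8 window held AGATAA at -239, on the reverse strand, and AGGAAG at -207. The Cxcr6 window held a TGTGGT match at -10, on the reverse strand. Of 32851 windows of the same length in the table, 5.2% held TGAGTCA, 11.2% AGATAA, 14.5% TCACAC, 16.8% TGTGGT, 35.4% AGGAAG and 0.155% the NF-kappaB consensus. The capitals in these 4 windows do not overlap one another. The matches describe the letters and show no binding.

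Ccr4 was lower in every anti-PD-1 library than in any other library. Its ligands CCL17 and CCL22 attract Th2 and regulatory T cells. Ccr4 (ENSMUSG00000047898, GRCm38 chromosome 9, 114490316 to 114504916, minus strand) measured 19.4, 27.7 and 3.62 CPM in anti-PD-1 mice, against 229.8, 347 and 232 CPM in the controls. All 3 anti-PD-1 libraries were far below the lowest control. In CPM the means were 16.9 ± 12.2 with anti-PD-1 and 269 ± 66.9 in controls (SD, n = 3 each). The fitted log2 fold change was -3.63 (SE 1.86) and did not pass the threshold of 0.05 after adjustment over all genes (adjusted p = 0.833 by Benjamini-Hochberg in the edgeR quasi-likelihood fit, which gives all p-values below unless DESeq2 is named).

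With anti-CTLA-4 Ccr4 measured 276, 91.9 and 152 CPM, and 2 of these libraries were below every control while replicate 1 was within their range. The anti-CTLA-4 libraries were all above the 19.4, 27.7 and 3.62 CPM measured in anti-PD-1 mice. Between the antibodies the fitted log2 fold change of anti-CTLA-4 over anti-PD-1 was 3.54 (SE 1.85, adjusted p = 0.364 with edgeR), and DESeq2 on the same genes gave 5.26 with an adjusted p of 0.0044. Both tools gave the same direction, and only DESeq2 called it. With RLE factors edgeR also gave 5.26, with an adjusted p of 0.307. These factors set anti-CTLA-4 replicate 2 at 0.0615, where TMM set 0.403. Against controls the fitted log2 change of anti-CTLA-4 was -0.09 (SE 1.68, adjusted p = 1) and turned to 1.90 with RLE factors. The log2 change stayed negative for anti-PD-1 against control in all 15 alternative fits, between -4.51 and -3.16. In bulk RNA, fewer cells that express a receptor and less of its RNA per cell cannot be told apart, which holds for every receptor here.

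Ccr2, the receptor for CCL2 and related monocyte chemoattractants that activated T cells also carry, was the most abundant of the 9 in CPM in every library. Ccr2 (ENSMUSG00000049103, chromosome 9, 124101950 to 124113557, plus strand) was read at 1853, 1652 and 2127 CPM in anti-PD-1 mice, against 1229.5, 611 and 1308 CPM in controls. The 3 anti-PD-1 libraries were above every control. The fitted log2 fold change of 1.06 (SE 0.63) did not pass (adjusted p = 0.949), and it was positive in all 15 alternative fits, between 0.74 and 1.27.

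In anti-CTLA-4 mice Ccr2 was read at 963, 799.6 and 899 CPM, within the range of the controls and below all 3 anti-PD-1 libraries. Against controls the fitted log2 change was 0.51 (SE 0.62, adjusted p = 1) although the mean CPM was lower, 887 ± 82.3 against 1049.6 ± 382 (SD, n = 3 each), and without anti-CTLA-4 replicate 2 it was 0.0014. The fitted log2 change of anti-CTLA-4 over anti-PD-1 was -0.55 (SE 0.62, adjusted p = 0.889) with TMM factors. It was 1.66 with RLE factors, which set the factor of anti-CTLA-4 replicate 2 at 0.0615 where TMM set 0.403, and -1.05 without that library. Ccr2 was also the steadiest receptor: its fitted coefficient of biological variation was 1.04, lower than that of all but 0.776% of the genes tested. Macrophage and monocyte marker sums were 271 to 649 CPM in anti-PD-1 mice and 236 to 765 CPM in controls. In anti-CTLA-4 replicate 2, where that sum reached 6348 CPM, Ccr2 was at 799.6 CPM, lower than in 7 of the other 8 libraries. T cell genes went both ways in that library. Cd4 and Cd3e were at 24.5 and 0.59 CPM, whereas Cd3d, Cd3g and Trac, at 696, 649 and 632 CPM, were above every other library. The part of monocytes in the Ccr2 values was not tested.

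A ratio of 2 genes within a library needs no scaling between libraries. Counts of Ccr2 per count of Ccr4 were 95.6, 59.6 and 587 with anti-PD-1, against 5.35, 1.76 and 5.64 in controls. With anti-CTLA-4 the ratio was 3.48, 8.7 and 5.91, on the side of the controls and apart from anti-PD-1. The ratio was looked at after the levels of both genes were known and carries no test.

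**Figure D1:**
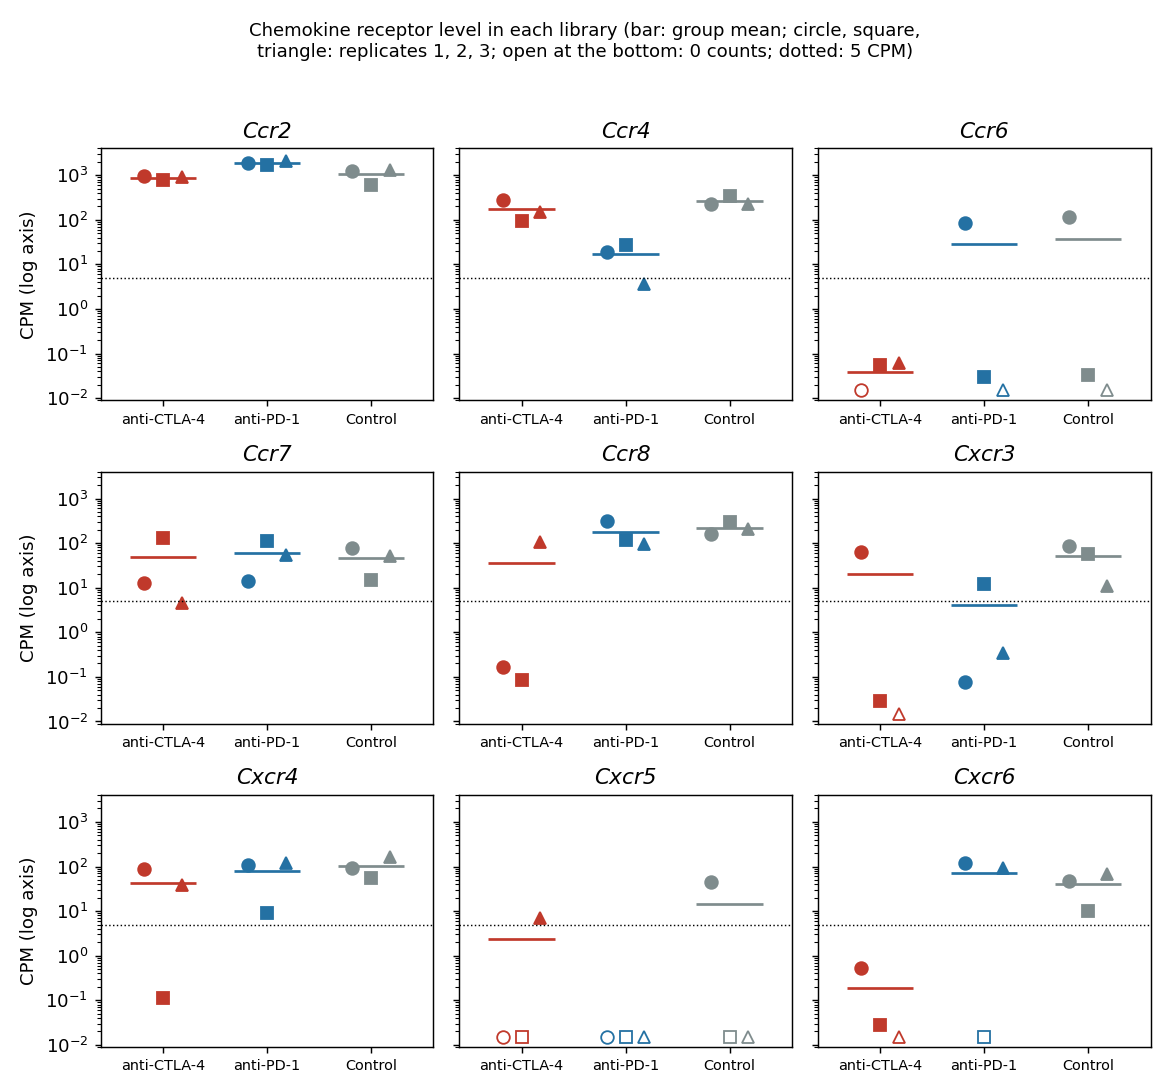
CPM on a log axis for each of the 9 receptors, with anti-CTLA-4, anti-PD-1 and control libraries from left to right, a point per mouse and a bar for the mean of each group (no bar where the mean is 0). Ccr4 sat at 3.62 to 27.7 CPM in anti-PD-1 mice and at 91.9 CPM or more in the other 6 libraries, while Ccr2 stayed at 611 CPM or more in all 9.

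Ccr8, the receptor for CCL1 and CCL8 and a marker of tumour regulatory T cells, was low in 2 of the 3 mice given anti-CTLA-4. Ccr8 (ENSMUSG00000042262, chromosome 9, 120092114 to 120094906, plus strand) measured 0.164, 0.0843 and 108 CPM in anti-CTLA-4 mice, against 163, 302 and 207 CPM in controls. Replicates 1 and 2 held 5 and 3 counts, and replicate 3 lay below the lowest control but within the range of anti-PD-1. With anti-PD-1 it measured 313, 120.0 and 94.1 CPM, overlapping both other groups. The fitted log2 fold change of anti-CTLA-4 over controls was -2.42 (SE 1.89, adjusted p = 0.741), and that of anti-CTLA-4 over anti-PD-1 was -2.27 (SE 1.88, adjusted p = 0.705). Without anti-CTLA-4 replicate 2 these changes were -1.81 and -1.64, and without anti-CTLA-4 replicate 3, the mouse at 108 CPM, they were -10.09 and -9.92 (adjusted p = 0.118 and 0.0853). The size of the last 2 values depends on the 5 and 3 counts of replicates 1 and 2. In anti-CTLA-4 replicates 1, 2 and 3 the regulatory T cell gene Foxp3 measured 3028, 898 and 2863 CPM, against 2362 to 3231 CPM in controls. In replicate 1, where Ccr8 held 5 counts, Foxp3 was within that range. The other regulatory T cell markers were below every control in replicate 1, with Il2ra at 5793, Ctla4 at 641 and Ikzf2 at 1602 CPM. Their lowest controls were at 5987, 755 and 1664 CPM. In replicate 3, where Ccr8 was at 108 CPM, Il2ra and Ikzf2 were lower than in replicate 1, at 4853 and 1234 CPM. Ctla4 was at 882 CPM there, within the range of the controls. In replicate 2 Il2ra, Ctla4 and Ikzf2 were at 2179, 499 and 719 CPM. The part of regulatory T cell content in the Ccr8 values was not tested.

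Cxcr6, the receptor for CXCL16, which marks tissue-resident and effector T cells, was at or near 0 in all 3 anti-CTLA-4 libraries. Cxcr6 (ENSMUSG00000048521, chromosome 9, 123806475 to 123811760, plus strand) measured 0.525, 0.0281 and 0 CPM in anti-CTLA-4 mice, against 46.6, 9.84 and 67.7 CPM in controls. The groups did not overlap, but anti-PD-1 libraries measured 119.7, 0 and 94.2 CPM, so that a count of 0 also occurred in 1 mouse given anti-PD-1. The adjusted p was 0.438 against controls and 0.345 against anti-PD-1 with edgeR, and 0.0403 and 0.00933 with DESeq2, so that only DESeq2 called it. No fold is given, because the anti-CTLA-4 libraries held 16, 1 and 0 counts. Cxcr6 lies inside Fyco1, a gene on the opposite strand, but their exons share 0 bases. Fyco1 was read at 563 to 774 CPM in anti-CTLA-4 mice, 522 to 588 CPM in anti-PD-1 mice and 321 to 695 CPM in controls.

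Cxcr3, the receptor for the interferon-induced chemokines CXCL9 and CXCL10 and a target of the Th1 factor T-bet, reached 5 CPM in all 3 controls but in 1 library of each treated group. Cxcr3 (ENSMUSG00000050232, chromosome X, 101731535 to 101734269, minus strand) measured 61.9, 0.0281 and 0 CPM in anti-CTLA-4 mice and 0.0783, 12.0 and 0.351 CPM in anti-PD-1 mice, against 86.4, 56.6 and 11.2 CPM in controls. Each treated group had 1 library inside the range of the controls and 2 below it. The fitted log2 fold changes were -1.21 (SE 3.27) with anti-CTLA-4 and -3.10 (SE 3.49) with anti-PD-1, and neither passed (adjusted p = 1 and 0.9998). The first was -10.37 without anti-CTLA-4 replicate 1 (adjusted p = 0.424), and the second -7.79 without anti-PD-1 replicate 2 (adjusted p = 0.832), so that each rests on the single library of its group above 5 CPM. The libraries left held 1 and 0 counts with anti-CTLA-4 and 2 and 12 with anti-PD-1. The size of these 2 values therefore depends on how counts at or near 0 are handled. Tbx21, which encodes T-bet, measured 0, 0.0843 and 2.54 CPM in anti-CTLA-4 mice, 0.0392, 98.6 and 15.1 CPM in anti-PD-1 mice, and 26.2, 0.0322 and 122 CPM in controls. Anti-PD-1 replicate 2 was the library of its group with the highest value for both genes, whereas among the controls Cxcr3 was at 56.6 CPM in the mouse with Tbx21 at 0.0322 CPM.

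Cxcr4, which retains cells in tissue rich in CXCL12, was read in all 9 libraries and overlapped in every comparison. Cxcr4 (ENSMUSG00000045382, chromosome 1, 128588199 to 128592293, minus strand) measured 87.7, 0.112 and 39.3 CPM in anti-CTLA-4 mice and 107.7, 9.03 and 119.9 CPM in anti-PD-1 mice, against 90.7, 55.9 and 164 CPM in controls. The lowest values were those of anti-CTLA-4 replicate 2 and anti-PD-1 replicate 2, the libraries with the fewest genes at 5 CPM, 2662 and 4209. The fitted log2 changes were -1.14 (SE 2.37) for anti-CTLA-4 and -0.31 (SE 2.35) for anti-PD-1 against controls, and the second turned to 0.20 without anti-PD-1 replicate 2 and to 0.16 without Control replicate 3.

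Of the lymphoid receptors, Ccr7 was read in every library without order between groups. Ccr7 (ENSMUSG00000037944, chromosome 11, 99144196 to 99155077, minus strand), which answers CCL19 and CCL21 in the T cell zone, measured 13.0, 129.5 and 4.53 CPM in anti-CTLA-4 mice and 13.9, 113 and 53.1 CPM in anti-PD-1 mice, against 76.1, 15.2 and 51.5 CPM in controls. The means were 49.0 ± 69.9, 60.2 ± 50.1 and 47.6 ± 30.7 CPM in that order of groups (SD, n = 3 each), closer to each other than the mice of any group were among themselves. The fitted log2 change of anti-CTLA-4 over controls was 1.51 (SE 2.28, adjusted p = 1) and turned to -2.30 without anti-CTLA-4 replicate 2, the mouse at 129.5 CPM. That of anti-PD-1 over controls was 0.71 (SE 2.24, adjusted p = 0.9998) and turned to -0.44 without anti-PD-1 replicate 2, at 113 CPM. Mature dendritic cells also carry CCR7. The dendritic cell markers Flt3, Clec9a, Cd209a and Batf3 were at 0 counts in all 9 libraries, and the sum of all 8 markers was 54.5 to 249.8 CPM in anti-CTLA-4 mice, 25.1 to 102 CPM in anti-PD-1 mice and 7.27 to 75.6 CPM in controls.

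Ccr6 and Cxcr5 reached 5 CPM in 2 libraries each and did not reach the filter on low counts. Ccr6 (ENSMUSG00000040899, chromosome 17, 8236043 to 8257141, plus strand) measured 85.0 CPM in anti-PD-1 replicate 1 and 113 CPM in Control replicate 1, and the other 7 libraries held 2 counts or fewer. Cxcr5 (ENSMUSG00000047880, chromosome 9, 44511787 to 44561877, minus strand), the follicular receptor for CXCL13, measured 7.13 CPM in anti-CTLA-4 replicate 3 and 44.0 CPM in Control replicate 1, with 0 counts in the other 7 libraries. Control replicate 1 was therefore the only library in which all 9 receptors reached 5 CPM. B cells carry both receptors, and in Control replicate 1 the 6 B cell markers summed to 0.0723 CPM, with Cd79a and Pax5 at 0 counts there and in every other library. Of Cxcr5's 3332 exon bases, 110 lie under Bcl9l on the opposite strand, and Bcl9l measured 91.7 CPM in Control replicate 1 and 35.3 CPM in anti-CTLA-4 replicate 3. Where Cxcr5 held 0 counts, Bcl9l measured 96.9 and 0.112 CPM in Control replicates 2 and 3. It was at 0.0656 and 22.4 CPM in anti-CTLA-4 replicates 1 and 2. In anti-PD-1 mice it measured 62.1, 148.6 and 101 CPM. The part of Bcl9l reads in the Cxcr5 counts was not tested.

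In the fit over all genes, edgeR called none of the 7 receptors tested in any comparison. The shares of all tested genes called were 0.369% for anti-CTLA-4 against control (0.369% higher and 0% lower), 0.0764% for anti-PD-1 against control (0.0382% higher and 0.0382% lower) and 0.827% for anti-CTLA-4 against anti-PD-1 (0.814% higher and 0.0127% lower). At an unadjusted p under 0.05 the receptor counts were 0, 0 and 1 of 7 in that order, where 11.3%, 6.01% and 14.1% of all tested genes passed. DESeq2 gave no p-value for Ccr2 and Ccr7. It gave an adjusted p for the other 5 of the 7 receptors and called 1, 0 and 2 of them. Of the 5575 genes to which it gave one, it called 10.3%, 7.55% and 15.3%. Groups that did not overlap were found for 2 of 7 receptors in each comparison, where 11.9%, 10.8% and 9.76% of all tested genes had such groups. For anti-PD-1 against control, Ccr2 was higher and Ccr4 lower, as were 3.45% and 7.33% of all tested genes. For anti-CTLA-4 against anti-PD-1, Ccr4 was higher and Ccr2 lower, as were 2.81% and 6.95%. A share of 2 in 7 is a count of a few genes, and nothing particular to the receptors is read from it. The median standard error of the receptors' log2 changes was 2.24 to 2.28, so that changes of several fold could not be told from the spread in the fit. That spread is estimated over all 9 libraries, so anti-CTLA-4 replicate 2 also enters anti-PD-1 against control. Without that library, the unadjusted edgeR p of this comparison fell from 0.0511 to 0.0025 for Ccr4 and from 0.0911 to 0.0025 for Ccr2. The adjusted p was 0.582 for both. In that fit 3 of 9 receptors and 755 of 9308 genes had an unadjusted p under 0.05. The comparisons of each antibody with controls share the same 3 control mice, and the p-values measure the spread between mice over all 9 libraries.

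By direction, 2 of 7 receptors had a positive and 5 a negative fitted change for anti-CTLA-4 against control, with a median log2 change of -1.14 against 0.0077 over all tested genes. For anti-PD-1 against control the split was 3 and 4 with a median of -0.15 against 0.07 over all genes. For anti-CTLA-4 against anti-PD-1 it was 3 and 4 with a median of -0.55 against -0.05. In the first of these, the 2 receptors that did not overlap, Ccr8 and Cxcr6, were both lower, as were 10.4% of all tested genes, while 1.57% were higher without overlap. The anti-CTLA-4 libraries also had fewer genes at 5 CPM, 5382, 2662 and 5124 against 6258, 6309 and 6051 in controls, and the part of this difference in the lower receptors was not tested.

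**Figure D2:**
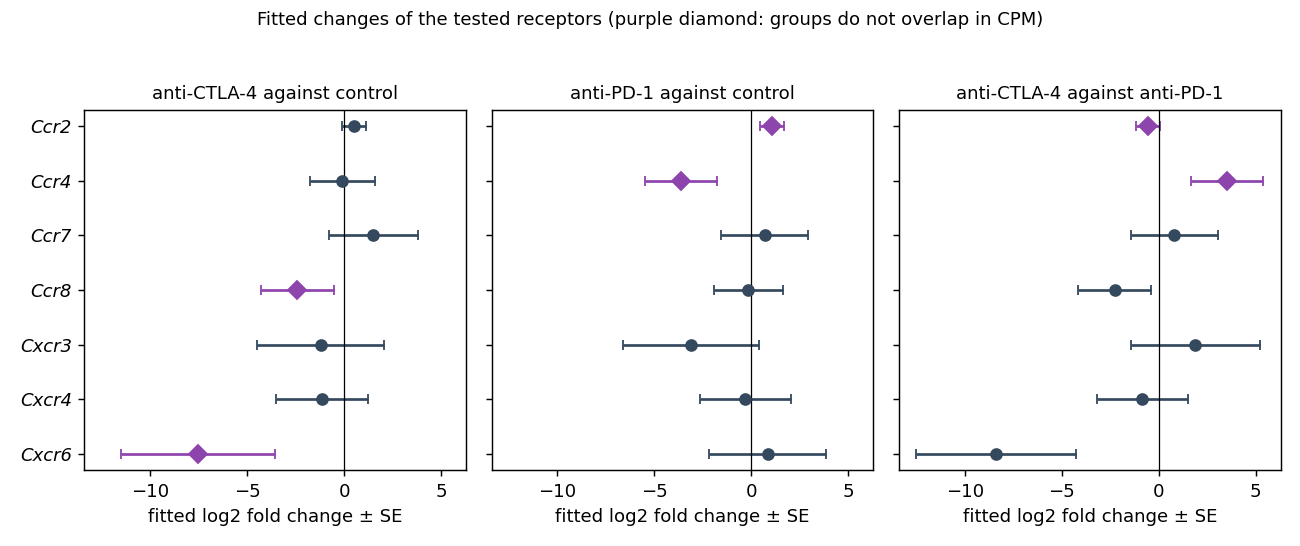
Fitted log2 fold change with its standard error for the 7 receptors tested, in a panel per comparison, with a purple diamond where the libraries of the 2 groups did not overlap in CPM. None passed the threshold, Ccr2 had the shortest bars, and the large changes of Cxcr6 rest on libraries at or near 0 and depend on how 0 counts are handled.

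Per kilobase of exon, which allows genes to be set beside each other, Ccr8 and Ccr2 led in controls at 191 ± 60.2 and 155 ± 56.5 CPM per kb, and did not differ beyond their spread. Next in controls came Ccr4 at 87.1 ± 21.6 CPM per kb and Cxcr4 at 57.3 ± 30.6 CPM per kb, then Cxcr3, Ccr7 and Cxcr6 at 21.4 to 29.7 CPM per kb, each within the others' spread. With anti-PD-1, Ccr2 led at 278 ± 35.3 and Ccr8 followed at 149.5 ± 102 CPM per kb, with ranges that overlapped, and Ccr4 stood seventh at 5.47 ± 3.96 CPM per kb. With anti-CTLA-4, Ccr2 led at 131 ± 12.2 CPM per kb and Ccr4 followed at 56.1 ± 30.4 CPM per kb (SD, n = 3 each). Exon lengths are unions over GENCODE transcripts and may be longer than the transcripts used in these cells.

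Of the summed CPM per kb of the 9 receptors, Ccr4 took 0.88%, 2.11% and 0.218% with anti-PD-1, against 12.0%, 20.9% and 12.4% in controls. Ccr2 took 38.5%, 57.5% and 58.5% with anti-PD-1, against 29.4%, 16.9% and 32.1% in controls. With anti-CTLA-4, Ccr2 took 44.1%, 55.4% and 44.3% and Ccr4 27.7%, 13.9% and 16.4%. In anti-CTLA-4 replicate 2 Ccr2, Ccr7 and Ccr4 made up nearly the whole sum, with Ccr7 at 30.6%.

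**Figure D3:**
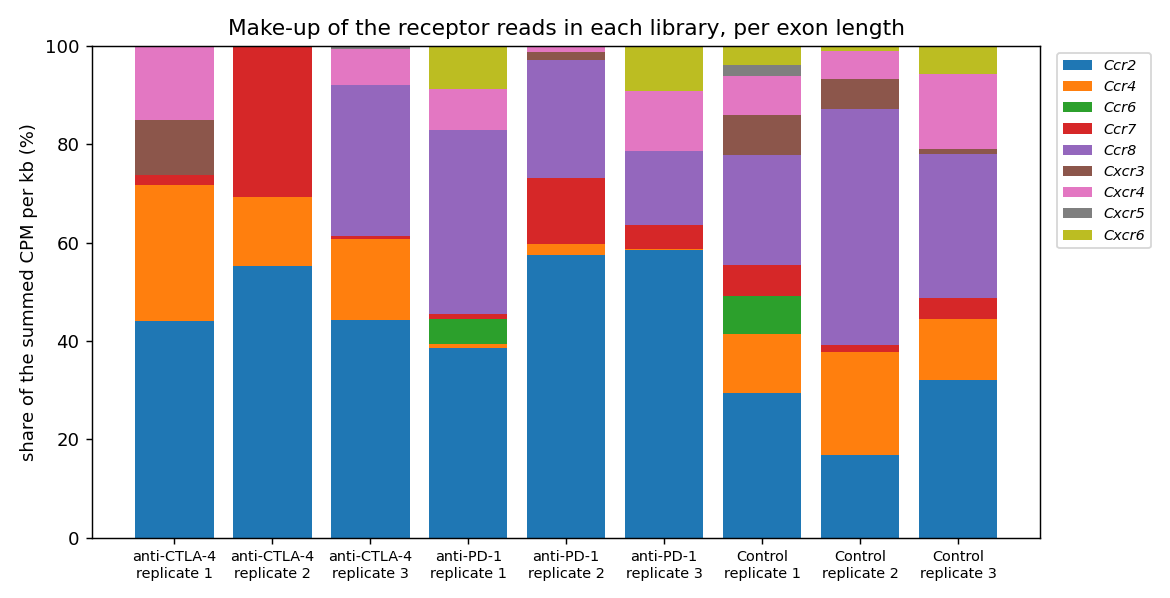
Share of each receptor in the summed CPM per kilobase of the 9 receptors, in percent, with a stacked bar per library for anti-CTLA-4, anti-PD-1 and control mice. The Ccr4 layer was 0.218% to 2.11% with anti-PD-1 and 12.0% or more in the other 6 libraries.

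Of 16 ligand genes, 6 were at 0 counts in all 9 libraries and 8 reached 5 CPM in at least 1. The 4 that could be tested had a positive fitted change in 4, 1 and 3 cases for anti-CTLA-4 against control, anti-PD-1 against control and anti-CTLA-4 against anti-PD-1, and none was called. Cxcl9, a CXCR3 ligand induced by interferon gamma, measured 289, 320.3 and 0.0918 CPM in anti-CTLA-4 mice and 0, 11.4 and 0.0584 CPM in anti-PD-1 mice, against 30.5, 0.0965 and 2.38 CPM in controls (adjusted p = 0.432 against controls and 0.261 against anti-PD-1). Macrophages make Cxcl9, and the macrophage and monocyte sums of the same anti-CTLA-4 libraries were 976, 6348 and 319 CPM, so that both were lowest in replicate 3, and the part of these cells in the Cxcl9 values was not tested. The CXCR3 ligand Cxcl10 averaged 81.6 ± 99.7, 43.3 ± 74.9 and 62.3 ± 101 CPM in anti-CTLA-4 mice, anti-PD-1 mice and controls (SD, n = 3 each), the CXCR6 ligand Cxcl16 averaged 40.8 ± 60.2, 59.8 ± 63.7 and 11.9 ± 20.6 CPM, and the CCR2 ligand Ccl2 was at 5 CPM or more in 2, 0 and 1 libraries.

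Of 15 other chemokine receptors, 6 were at 0 counts everywhere and 7 could be tested, and none was called. Their fitted changes were positive for 5, 2 and 6 genes in the same order of comparisons, with medians of 0.89, -0.32 and 1.78. Ccr1, an inflammatory receptor, was at 0.164, 0.197 and 0.0612 CPM in anti-CTLA-4 mice and at 203, 231 and 54.7 CPM in anti-PD-1 mice, against 159.7, 202 and 75.4 CPM in controls (adjusted p = 0.163 against controls and 0.0865 against anti-PD-1). Ccr1 and Cxcr6 were both below 0.6 CPM in the 3 anti-CTLA-4 libraries, but in anti-PD-1 replicate 2, where Cxcr6 had 0 counts, Ccr1 was at its highest. Of the distinct runs of 76 bases, the read length, in their transcripts, the 9 receptors shared at most 1.14% with other genes.

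**Figure D4:**
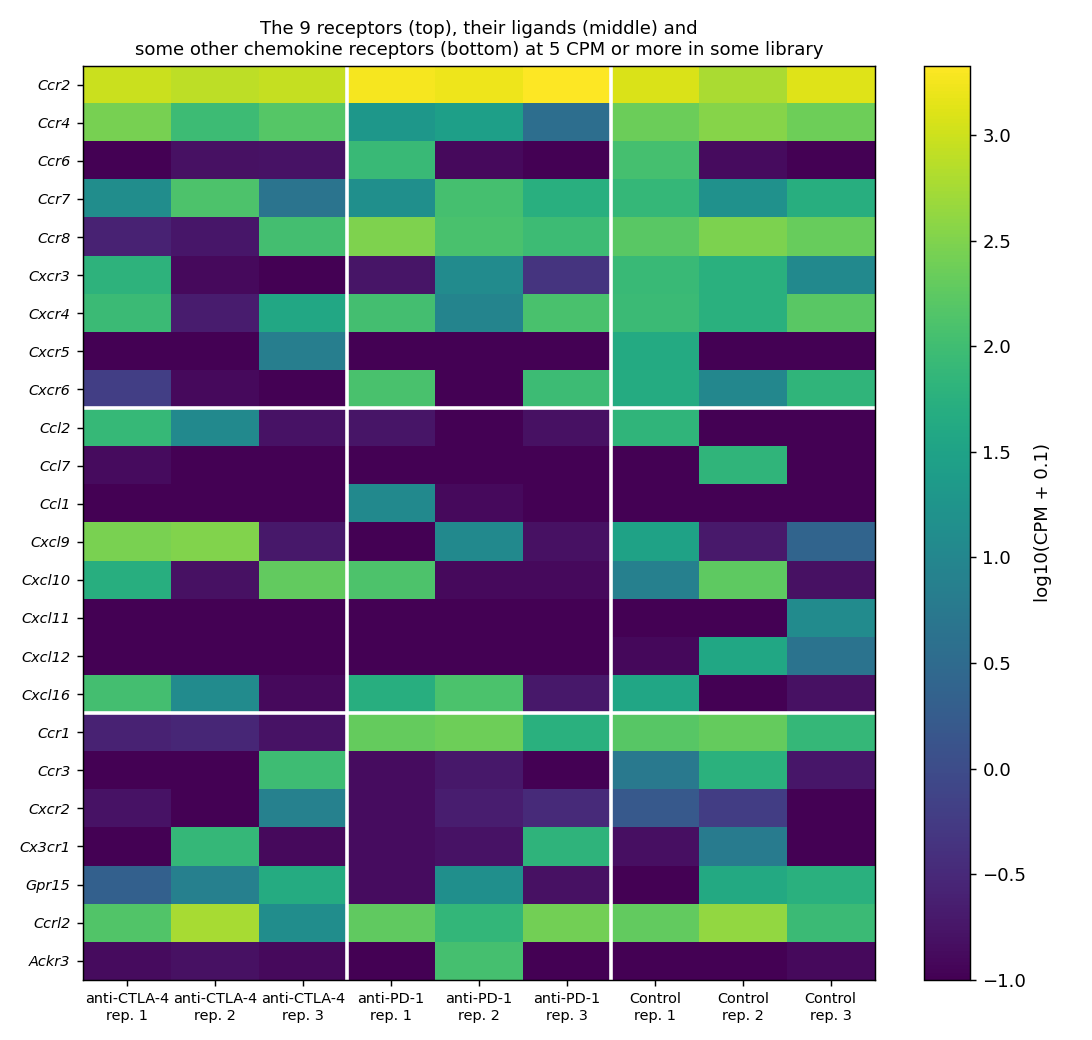
Level as log10(CPM + 0.1) in each library for the 9 receptors, and for those of their ligands and some of the other chemokine receptors that reached 5 CPM in a library, with anti-CTLA-4, anti-PD-1 and control libraries from left to right. Ccr2 was bright in all columns, Ccr4 was darker in the 3 anti-PD-1 columns, and Ccr1 and Cxcr6 were dark in the 3 anti-CTLA-4 columns.

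Among 20 listed genes of receptor signalling and desensitisation, 18 were tested and none was called, with 6, 9 and 7 positive fitted changes in the same order of comparisons and medians of -0.62, 0.0041 and -0.58. Dock2 and Rac2, which drive lymphocyte movement below chemokine receptors, averaged 943 ± 436 and 718 ± 178 CPM in anti-PD-1 mice, against 994 ± 117 and 518 ± 166 CPM in controls, and both were at 2.31 CPM or less in anti-CTLA-4 replicate 2. Gnb1 and Rgs2 were read in all 9 libraries. Pik3r5, a subunit of the PI3K gamma complex that acts below these receptors, was lower without overlap in anti-PD-1 mice, at 18.8, 0.212 and 4.12 CPM against 238, 185 and 117 CPM in controls (log2 fold change -4.47, SE 2.24, adjusted p = 0.823). Pik3cg, the catalytic subunit of the same complex, was higher without overlap, at 204.7, 365 and 194 CPM in anti-PD-1 mice against 139, 78.5 and 173 CPM in controls (log2 fold change 1.28, SE 1.82, adjusted p = 0.9998). Both were named after their values were seen.

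Of 14 adhesion, entry and egress genes 13 were tested and none was called, with 8, 9 and 8 positive fitted changes and medians of 0.70, 0.52 and 0.27. The integrin genes Itga4, Itgal and Itgb2 were read in every library and overlapped between anti-PD-1 and control mice. Of 14 transcription factor genes tied to these receptors 13 were tested and none was called, with 8, 6 and 8 positive changes and medians of 0.17, -0.08 and 0.69. Gata3, the Th2 factor, measured 268, 182 and 453 CPM in anti-PD-1 mice, against 157, 752 and 289 CPM in controls, and did not share the low values of Ccr4. Foxp3, Hif1a and Rora were at 45.3 CPM or more in every library except for Hif1a at 1.52 CPM in anti-CTLA-4 replicate 2.

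Likeness was measured as the root mean square distance between centred log2(CPM + 1) profiles over the 9 libraries, among 7512 tested genes with at least 5 CPM on average, and genes with clone-style names were not listed. It describes patterns that share the same libraries and their gaps. For Ccr4 the nearest genes were Zcchc11, Got2 and Klf3, at distances of 0.86, 1.18 and 1.22, where the median gene was at 3.05. Zcchc11 measured 33.6, 22.3 and 6.46 CPM in anti-PD-1 mice, against 68.3, 125 and 112 CPM in controls, and Got2 at 5.44, 5.41 and 3.59 CPM against 339.6, 35.4 and 54.2 CPM. For Ccr2 they were Runx2, Tma7 and Xpnpep1 at 0.33 to 0.37, for Ccr8 Tbcel, Mast3 and Nab1 at 0.62 to 0.72, and for Cxcr6 Eif4e3, Mre11a and Syne1 at 0.58 to 0.64. The genes nearest to Ccr8 were, like it, below 0.4 CPM in anti-CTLA-4 replicates 1 and 2. For Ccr7 they were Itsn2, Wbp1l and Eif4e2, for Cxcr3 Kpna1, Ppp1r7 and Zfp467, and for Cxcr4 Nsd1, Mob4 and Arhgef2.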

How the data were processed

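RNA of ICOS+ CD4 T cells sorted from the tumours of 9 mice was sequenced in read pairs of 76 bases. The deposited values are whole-number counts per gene, made by the authors with TopHat2 and HTSeq on GRCm38, per the submitters' processing notes, which also name DESeq2. The counts are labelled first strand. No source used here gives the versions of these tools or how the strand option of HTSeq was set. The 5 rows that name no gene were left out of totals: reads counted to genes were 32.9% to 40.7% of the table's sum in each library, reads on no feature 27.1% to 42.0% and reads not placed uniquely 24.3% to 31.1%. Genes were kept by edgeR's filterByExpr (minimum count 10, 7858 genes) and fitted over all 9 libraries with a mean per group, TMM factors and robust quasi-likelihood dispersions (edgeR 4.0.16, R 4.3.3), with Benjamini-Hochberg adjustment over all genes and a threshold of 0.05. Fold changes are those of the fit, on the log2 scale. DESeq2 1.42.0 and other scalings, filters and left-out libraries were alternatives, and the fit was tested on simulated data. Of the 9 receptors, 7 passed the filter. From each list of related genes, any gene called and up to 4 with the highest mean CPM were named, except for some that are not reported here, and other named genes were chosen after their values were seen. The receptors, lists and tests were chosen with earlier results of these data known. Gene models are GENCODE on GRCm38, and no pair of libraries was alike: at least 89% of tested genes differed in count.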

Additional observations from a re-analysis of the deposited data

How the results depend on the processing

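Over 15 alternative fits of the 21 receptor changes, 287 of 315 values kept their direction, 28 reversed and 3 passed the threshold, all 3 with DESeq2, which called 1 receptor for anti-CTLA-4 against control and 2 for anti-CTLA-4 against anti-PD-1. For anti-CTLA-4 against control, 29 genes were called, against 574 with DESeq2, 0 with RLE factors, 0 with library totals only, 64 with no filter on low counts, 10 with the replicate block, 1 without both libraries with the fewest genes, and 0 to 79 when each library was left out. For anti-PD-1 against control, 6 were called, against 421, 0, 0, 2, 1, 2 and 0 to 5 in the same order, and for anti-CTLA-4 against anti-PD-1, 65, against 852, 0, 6, 98, 12, 16 and 6 to 145. RLE factors and DESeq2 each reversed Ccr4 for anti-CTLA-4 against control to 1.90, Ccr8 for anti-PD-1 against control to 0.068 and Ccr2 for anti-CTLA-4 against anti-PD-1 to 1.66. RLE factors moved the median of all genes to 0.56, 0.26 and 0.45 in the 3 comparisons, and library totals to -0.34, -0.12 and -0.21. With totals, Ccr2 for anti-CTLA-4 against control was -0.24 and Ccr7 for anti-CTLA-4 against anti-PD-1 was -0.30.

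With the replicate block, Ccr7 was -0.85 for anti-CTLA-4 against control, -0.57 for anti-PD-1 against control and -0.29 for anti-CTLA-4 against anti-PD-1, Ccr8 was 0.089 for anti-PD-1 against control and Cxcr3 was -1.65 for anti-CTLA-4 against anti-PD-1. Deviations of libraries with the same number from their group means were not correlated (-0.0389 to 0.0159, n = 9 pairs). Gaps enter these values, since 68.5% of tested genes had 3 counts or fewer in at least 1 library. The correlations therefore cannot decide whether the number marks a batch. Without both libraries with the fewest genes, an alternative chosen after seeing the data, Ccr2 was -0.0012 and Ccr7 -2.30 for anti-CTLA-4 against control, Ccr7 -0.45 and Cxcr4 0.18 for anti-PD-1 against control, and Ccr7 -1.85 for anti-CTLA-4 against anti-PD-1. Leaving out each library gave ranges that crossed 0 for Ccr4 (-0.35 to 0.018) and Ccr7 (-2.30 to 1.90) in anti-CTLA-4 against control, for Ccr7 (-0.44 to 1.23), Ccr8 (-0.72 to 0.16) and Cxcr4 (-0.74 to 0.20) in anti-PD-1 against control, and for Ccr7 (-3.02 to 1.81) and Cxcr3 (-7.25 to 6.59) in anti-CTLA-4 against anti-PD-1. The cause of these changes was not tested. A count of 0 allows 0.0723 to 0.118 CPM at these depths.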
